A study of Mus musculus with 75 samples.

Results

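The 9 genes described here encode factors and receptors through which the enteric nervous system is built and maintained: the ligands Gdnf, Nrtn, Edn3 and Bdnf, and the receptors Ret, Gfra1, Gfra2, Ednrb and Ngfr. They were taken by symbol from the 21051 genes counted in untreated mice and at 2 h and from the 21076 genes counted at 24 h, and all 9 were present in both tables. GDNF and neurturin (the product of Nrtn) each bind a preferred co-receptor on the cell surface, GFRα1 and GFRα2, and the complex signals through the tyrosine kinase RET. Endothelin-3 (Edn3) acts on the endothelin B receptor (Ednrb), and both this axis and the RET axis are needed for neural crest cells to colonise the gut, so that loss of either leaves bowel without ganglia. Ngfr encodes p75, a receptor shared by all neurotrophins and long used to mark neural crest derivatives, and BDNF (Bdnf) signals mainly through TrkB, the product of Ntrk2.

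The series measured RNA of cells labelled enteric glial cells in 75 mouse libraries, 16 groups and 3 experiments. All mice, controls and knockouts included, carried a green fluorescent (eGFP) reporter transgene, and age and strain background are not given in the sources used here. Untreated reporter mice gave myenteric plexus (the ganglia between the muscle layers) and submucosal plexus (the ganglia under the mucosa), with 5 colon and 6 small-intestinal libraries of each. Reporter mice killed 2 h after injection into the peritoneum of LPS (lipopolysaccharide from E. coli, 2 mg/kg) or of phosphate-buffered saline (PBS) gave myenteric plexus of both regions, 4 libraries per group. In the 24 h experiment the same injections, with tissue taken 24 h later, were given to reporter mice with intact Gpr37 (Gpr37WT, here wild type) and to Gpr37-/- mice with the reporter (here knockout), again with myenteric plexus of both regions. Small intestine was represented by 6 wild-type libraries given PBS, 4 given LPS, and 4 and 5 from knockouts. For colon the numbers were 4 and 5 in wild types and 5 and 4 in knockouts, PBS first. In 15 cases a colon and a small-intestinal library at 24 h came from the same numbered mouse.

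Untreated libraries held 2547296 to 9002546 counts, those at 2 h 1990744 to 7883251 and those at 24 h 2882539 to 33283346. Values are CPM (counts scaled to a common library total, with trimmed-mean-of-M-values or TMM factors), and 3 counts in a library corresponded to 0.0933 to 1.46 CPM. Gpr37 had 3 or fewer counts in 17 of 18 knockout libraries, with a maximum of 9 counts, and also in 4 of 19 wild-type libraries. Summed over 9 glial genes, Sox10 and S100b among them, the level was 6307 to 14013 CPM in the untreated myenteric libraries, and markers of other cells were present too. Summed over 9 neuronal genes, the level was 758 to 2683 CPM in untreated myenteric small intestine and 164 to 412 CPM in untreated myenteric colon. Over 6 smooth muscle genes it was 1190 to 8337 and 7099 to 22793 CPM in the same groups. Nothing in the labels of the untreated and 2 h libraries names the animals, so p-values there measure the spread between libraries. In bulk libraries of this kind, fewer cells of a type and less RNA per cell cannot be told apart.

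On GRCm38 the ligand genes lie at chr15:7810846-7837575 (Gdnf), chr17:56751325-56757530 (Nrtn), chr2:174760619-174784042 (Edn3) and chr2:109674700-109727007 (Bdnf). The receptor genes lie at chr6:118151745-118197718 (Ret), chr19:58235604-58455909 (Gfra1), chr14:70890120-70979838 (Gfra2), chr14:103814625-103844402 (Ednrb) and chr11:95568818-95587735 (Ngfr). Gfra1 and Bdnf each overlap an annotated antisense gene, Gm16277 and Gm45346, and the use of strand in counting is not given in the sources used here, so reads of the partners may not be separable.

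Levels of different genes were compared only per kilobase of exonic length. In untreated myenteric small intestine Gfra1 was highest, at 125 ± 27.0 CPM per kilobase (SD, n = 6), followed by Ednrb at 92.8 ± 25.2, Gfra2 at 82.2 ± 29.8 and Ngfr at 55.3 ± 17.3. Neighbours in that order lay within their combined spread. Below these 4 receptors came Nrtn at 6.07 ± 4.16 and Ret at 4.64 ± 3.50, which also overlapped, then Edn3 at 1.76 ± 1.18, Bdnf at 0.485 ± 0.552 and Gdnf at 0.0280 ± 0.0686. The mRNA of the kinase RET was thus far below that of its co-receptors, and Edn3, Bdnf and Gdnf each overlapped with their neighbours in the order. In untreated myenteric colon the order differed, with Gfra1 at 74.2 ± 27.9 and Gfra2 at 64.1 ± 16.9 ahead of Ednrb at 30.4 ± 13.1 and Ngfr at 13.0 ± 2.60 CPM per kilobase (SD, n = 5). Nrtn at 10.4 ± 6.70 and Edn3 at 4.98 ± 2.43 followed there, while Gdnf, Ret and Bdnf were each under 1 on average (0.726 ± 1.21, 0.424 ± 0.618 and 0.169 ± 0.252).

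**Figure D1:**
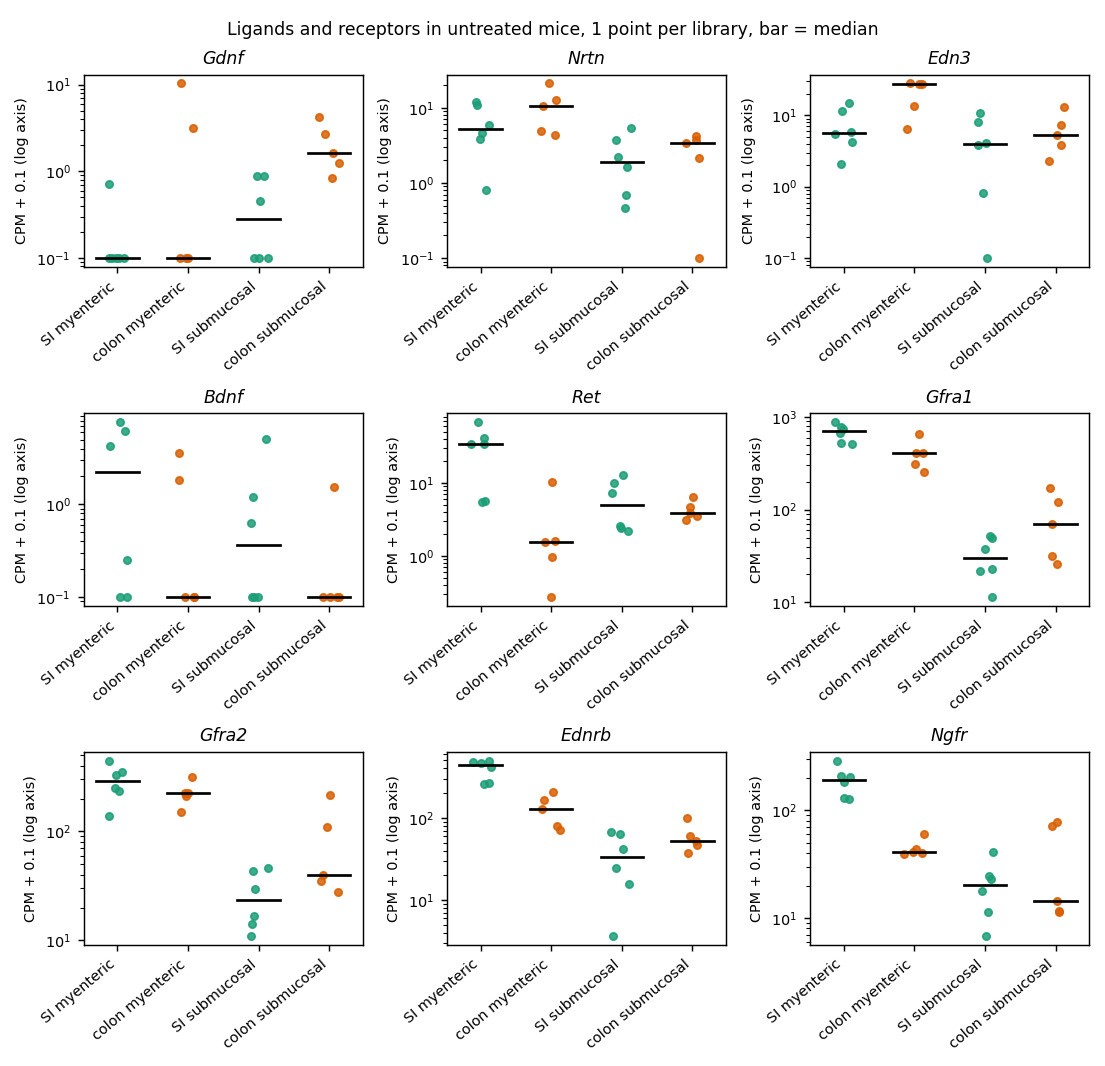
CPM plus 0.1 on a log axis for each of the 9 genes in untreated mice, 1 point per library and a bar at the median, in the myenteric and submucosal plexus of small intestine (SI, green) and colon (orange). Gfra1, Gfra2, Ednrb and Ngfr are highest in myenteric small intestine, Ret is low in 4 of 5 myenteric colon libraries, and most libraries of the myenteric plexus hold no count of Gdnf.

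Colon and small intestine were compared first in the myenteric plexus of untreated mice. Ret, Ngfr and Ednrb were lower in the colon in level, and the first 2 passed the test. Of the 8 genes tested (Gdnf was removed by the filter on low counts), 2 were called, both lower in the colon, against 3.19% of the 14090 genes tested in this comparison. The median log2 fold change was -1.10 over the 8 genes and 0.01 over all genes.

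Ngfr was measured at 38.9, 39.9, 40.7, 43.5 and 60.4 CPM in the 5 colon libraries. In the small intestine it ranged from 126 through a median of 194 to 288 CPM. Every colon library was thus below every small-intestinal one, and the log2 fold change was -2.09 ± 0.50 (SE; adjusted p = 0.0263, edgeR quasi-likelihood with Benjamini-Hochberg adjustment). Ret, the signalling kinase of the GDNF family, was at 0.175, 0.876, 1.47, 1.52 and 10.3 CPM in the colon. The small intestine gave 5.34 to 68.0 CPM, with a median of 34.2. The single colon library at 10.3 CPM (male 2) overlapped with the lowest 2 of the small intestine, and Ret fell by 3.51 on the log2 scale with an SE of 0.85 (adjusted p = 0.0261, edgeR quasi-likelihood with Benjamini-Hochberg adjustment). Ednrb stood at 72.3, 80.2, 128, 164 and 204 CPM in the colon and at 258 to 492 CPM (median 442) in the small intestine. These groups did not overlap either, as was true of 3.14% of all genes in this comparison. The log2 fold change of -1.61 ± 0.48 did not pass (adjusted p = 0.0666, edgeR quasi-likelihood with Benjamini-Hochberg adjustment). Ednrb did pass by DESeq2 (-1.65, adjusted p = 0.00986) and by edgeR with the 2 groups fitted alone (-1.61, adjusted p = 0.0108).

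Both calls lay close to the threshold. Ret lost its call without myenteric colon male 1 or male 3 or without small-intestinal female 1 (log2 fold changes of -3.36 to -3.12). With the replicate block (-3.75) and with the 2 groups fitted alone (-3.54) it was lost as well (adjusted p = 0.0590 and 0.0650, edgeR quasi-likelihood with Benjamini-Hochberg adjustment). Ngfr lost it without colon male 1, male 3 or female 3 or without small-intestinal female 1 (-2.08 to -2.05). Neuronal markers moved with these genes: 6 of 9 were called lower in the colon, their median being -2.23 on the log2 scale, and Elavl4 had -3.83 ± 0.69. The 9 glial markers had a median of -0.52, with Fabp7 alone called, and 3 of 6 smooth muscle, 3 of 3 lymphatic endothelial and 2 of 4 fibroblast markers were called higher. Lymphatic endothelial markers summed to 348 to 1140 CPM in the colon and 3.10 to 143 CPM in the small intestine. Their part in the result was not tested. The co-receptors differed less in level, with Gfra1 at 255 to 652 CPM in the colon and 511 to 879 in the small intestine, and Gfra2 at 152 to 319 and 139 to 443 CPM.

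Ngfr and Ednrb, the 2 receptors whose untreated myenteric groups did not overlap, are shown with the DNA upstream of the start that RefSeq lists for each (build GRCm38.p6, minus strand, written 5′ to 3′), since these stretches let their promoters be compared. The RefSeq promoter table held 14 starts for 7 of the 9 genes, and no stretch is shown for Ret or Gfra2. Capitals mark matches to the GC box GGGCGG, searched on both strands, a motif that 32.74% of the 32851 starts in the table carry in the 250 bases before them.
Ngfr, chr11:95587736-95587948: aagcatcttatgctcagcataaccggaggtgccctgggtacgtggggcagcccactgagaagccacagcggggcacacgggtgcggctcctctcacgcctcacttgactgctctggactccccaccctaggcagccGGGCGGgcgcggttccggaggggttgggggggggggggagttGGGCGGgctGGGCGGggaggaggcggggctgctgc
Ednrb, chr14:103843702-103843951: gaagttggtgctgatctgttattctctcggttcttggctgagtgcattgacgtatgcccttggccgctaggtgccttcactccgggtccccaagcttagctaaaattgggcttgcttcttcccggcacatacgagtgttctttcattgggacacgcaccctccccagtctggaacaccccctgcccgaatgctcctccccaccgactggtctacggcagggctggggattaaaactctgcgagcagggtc
The 250 bases before the RefSeq start of Ngfr hold 4 matches, but their last 37 bases lie in the first annotated exon and are not printed. The 213 bases shown hold 70.89% G and C and 3 of the 4 matches. The Ednrb stretch of 250 bases holds 56.8% G and C and has 0 matches. It lies inside the annotated span of Ednrb (chromosome 14, 103814625 to 103844402, GENCODE on GRCm38), whose longest form starts further upstream, and it overlaps no annotated exon. Neither stretch matches TATAAA (in 12.37% of all starts) or the SOX motifs ACAAAG or ACAATG (25.24%), on either strand. No match says only that these letters are absent from this window.

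The same difference was measured in PBS-injected mice at 2 h. Here 1 of the 9 genes was called, Ngfr, against 0.221% of 13107 genes. Ngfr was at 13.3, 32.9, 32.9 and 43.8 CPM in the colon and at 94.5, 104, 251 and 391 CPM in the small intestine. The groups were well apart, with a log2 fold change of -2.77 ± 0.49 (adjusted p = 0.0304, edgeR quasi-likelihood with Benjamini-Hochberg adjustment). The call was lost without any 1 of 5 libraries, namely colon female 1, female 3 or male 4, or small-intestinal male 2 or male 4 (-2.83 to -2.28), and by edgeR with the 2 groups fitted alone (-2.78, adjusted p = 0.0530).

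Ret in the same mice was at 0.230, 0.667, 1.40 and 37.7 CPM in the colon, and at 36.1, 112, 139 and 143 CPM in the small intestine. Colon male 2 was alone in reaching the small-intestinal range. The share of counts in mitochondrial genes was 8.04% in that library, 1.76% to 2.98% in the other colon libraries and 7.08% to 10.9% in the small intestine, and its part in the result was not tested. The log2 fold change was -3.45 ± 1.35 (adjusted p = 0.314, edgeR quasi-likelihood with Benjamini-Hochberg adjustment), and without that library it was -7.08 (adjusted p = 0.0499 with the same test). Ednrb was at 94.7, 147, 157 and 314 CPM in the colon and at 314, 430, 438 and 563 CPM in the small intestine, the highest colon value (313.54) being just under the lowest small-intestinal one (313.651). Its log2 fold change of -1.29 ± 0.32 missed the threshold (adjusted p = 0.101, edgeR quasi-likelihood with Benjamini-Hochberg adjustment), and without colon male 2 it was -1.71 (adjusted p = 0.0203). By DESeq2 Ednrb passed with all libraries (-1.33, adjusted p = 0.00489). As in untreated mice, the neuronal markers had a negative median, -2.77 on the log2 scale, with 1 of 9 called and 8 of 9 without overlap. Of all genes, 8.16% did not overlap in this comparison. Smooth muscle markers summed to 19382 to 72124 CPM in the colon and 2337 to 15329 CPM in the small intestine, lymphatic endothelial markers to 128 to 434 and 2.92 to 25.4 CPM, and mesothelial markers to 6.76 to 205 and 359 to 692 CPM. None of these 3 sums overlapped, and their part in the result was not tested.

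At 24 h the wild-type PBS groups alone called none of the 9 genes, against 0.141% of 14903 genes. Averaged over genotype and treatment, which uses all 37 libraries of that experiment, 3 of 9 genes were called, all lower in the colon, against 7.72% of genes. This average, and those of LPS and genotype below, were chosen after the single comparisons had been seen. Ret had a log2 fold change of -1.63 ± 0.41, Ngfr of -1.25 ± 0.32 and Bdnf of -3.13 ± 0.81 (adjusted p = 0.0102, 0.0117 and 0.0134, edgeR quasi-likelihood with Benjamini-Hochberg adjustment). All 3 kept their call without any 1 of the 37 libraries and with the mouse as a block.

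In the wild-type PBS groups Ret was at 10.9, 13.2, 29.3 and 30.0 CPM in the colon and at 33.3 to 90.3 CPM in the small intestine (median 51.6), without overlap. Ngfr there was at 44.8, 46.2, 88.7 and 95.6 CPM in the colon against 72.0 to 242 CPM (median 147), which overlapped. In knockout PBS libraries Ret was at 2.19, 2.31, 7.53, 17.5 and 40.1 CPM in the colon and at 2.12, 54.2, 54.2 and 56.0 CPM in the small intestine. After LPS the wild-type colon gave 0.910, 2.91, 13.2, 18.7 and 20.1 CPM for Ret against 35.1 to 144 CPM, and the knockout colon 5.42, 14.2, 21.8 and 69.7 CPM against 25.8 to 90.2 CPM. Only the wild-type groups were without overlap, as were 5.99% of all genes in the wild-type PBS pair. That share was not computed for the wild-type LPS pair.

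Ngfr was at 8.34, 37.7, 90.2, 115 and 138 CPM in knockout PBS colon and at 60.9, 101, 135 and 246 CPM in the small intestine. After LPS Ngfr was at 28.1, 36.8, 45.9, 74.3 and 205 CPM in wild-type colon against 55.4 to 431 CPM, and at 27.8, 38.1, 55.3 and 84.4 CPM in knockout colon against 68.6 to 330 CPM. Its regional groups overlapped in all 4 combinations. Colon Bdnf was at 0 in 1 of 4 wild-type PBS libraries, 4 of 5 knockout PBS, 4 of 5 wild-type LPS and 2 of 4 knockout LPS libraries, and its highest colon value was 1.94 CPM. In the small intestine it reached 7.87, 5.16, 11.7 and 5.46 CPM in those same conditions, and 1 of the 19 libraries was at 0.

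Within mice numbered 11 and above the average gave -1.71 for Ret, -1.13 for Ngfr and -1.99 for Bdnf, and the call of Bdnf was lost (adjusted p = 0.192, edgeR quasi-likelihood with Benjamini-Hochberg adjustment). Mice numbered 10 and below include no wild-type PBS colon library, so no such value could be had there. Of the 9 neuronal markers 8 were called lower in the colon, with a median of -1.37, and the glial markers had a median of -0.04. All 3 lymphatic endothelial markers were called higher and 2 of 3 mesothelial ones lower, with wild-type PBS sums of 329 to 1020 against 15.1 to 57.9 CPM and of 17.6 to 89.8 against 502 to 2409 CPM. Their part in the result was not tested.

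**Figure D2:**
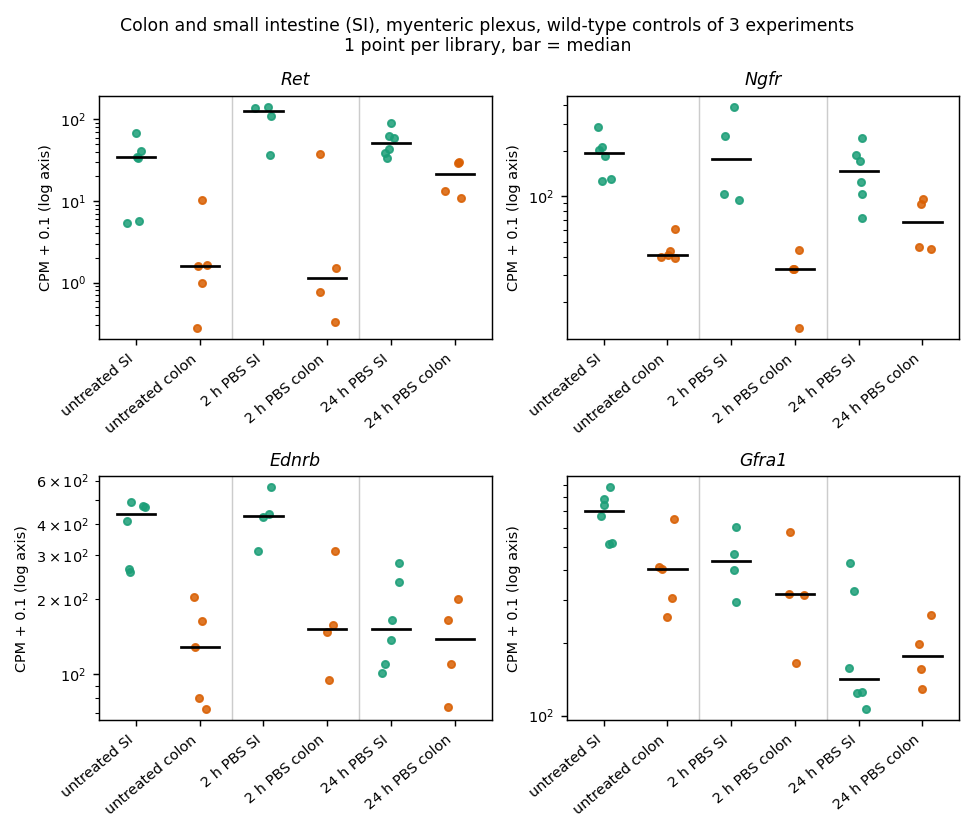
CPM plus 0.1 on a log axis for Ret, Ngfr, Ednrb and Gfra1 in the myenteric plexus of small intestine (SI, green) and colon (orange), 1 point per library and a bar at the median, in untreated mice, PBS at 2 h and wild-type PBS at 24 h. The median of Ret and of Ngfr is lower in the colon in each experiment, while Gfra1 overlaps between regions in all 3.

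In the submucosal plexus another gene was called between regions, and the test of plexus by region is given below. Of 8 genes tested 1 was called, Gfra2, higher in the colon, against 5.18% of 14090 genes. The co-receptor Gfra2 was at 27.9, 34.9, 39.6, 110 and 214 CPM in the colon and at 10.9 to 46.2 CPM (median 23.2) in the small intestine. Only colon female 3 and male 3 lay above the small-intestinal range, and the log2 fold change was 1.67 ± 0.47 (adjusted p = 0.0412, edgeR quasi-likelihood with Benjamini-Hochberg adjustment). Without colon male 3 it was 0.99 (adjusted p = 0.271). The call was also lost without colon female 3 or small-intestinal male 1, female 1, female 2 or female 3 (1.51 to 1.71), and by edgeR with the 2 groups fitted alone (1.65, adjusted p = 0.108).

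Gfra1 was at 25.8, 31.4, 69.9, 120 and 170 CPM in the submucosal colon and 11.3 to 52.5 CPM in the small intestine, and 1.36 ± 0.42 on the log2 scale did not pass (adjusted p = 0.0652, edgeR quasi-likelihood with Benjamini-Hochberg adjustment). It passed without colon male 1 or female 1 or without small-intestinal male 2 (1.55 to 1.59), and by DESeq2 (1.35, adjusted p = 0.0229). Glial markers were higher in the same direction, 3 of 9 being called and their median at 1.20, with Gfap at 1.92 ± 0.43. Their part in the result was not tested. Ret, at 3.04 to 6.29 CPM in the colon and 2.11 to 12.6 CPM in the small intestine, and Ngfr, at 11.2 to 78.0 and 6.72 to 41.3 CPM, overlapped between the regions of this plexus.

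Next, the plexuses were compared in each region. In the small intestine all 5 receptors were called lower in the submucosal plexus, and none of the 3 ligands tested was called. Those 5 of 8 genes stand against 43.5% of all 14090 genes called in this comparison, so a call alone is common here. The median log2 fold change was -2.80 over the 8 genes and 0.06 over all genes.

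Gfra1, which binds GDNF, was at 511 to 879 CPM (median 705) in the myenteric and 11.3 to 52.5 CPM (median 30.3) in the submucosal plexus. The ranges are far apart, and the log2 fold change was -4.40 ± 0.46 (adjusted p = 5.97e-07, edgeR quasi-likelihood with Benjamini-Hochberg adjustment). Gfra2, which binds neurturin, was at 139 to 443 CPM (median 288) and 10.9 to 46.2 CPM (median 23.2), a log2 fold change of -3.44 ± 0.49. Ednrb went from 258 to 492 CPM (median 442) down to 3.60 to 67.9 CPM (median 33.0), with -3.45 ± 0.48. Ngfr was at 126 to 288 CPM (median 194) and 6.72 to 41.3 CPM (median 20.3), with -3.21 ± 0.50. None of these 4 genes overlapped between the plexuses, as was true of 25.5% of all genes, and Gfra2, Ednrb and Ngfr had adjusted p of 1.36e-05, 1.16e-05 and 3.34e-05 (edgeR quasi-likelihood with Benjamini-Hochberg adjustment). Ret, at 5.34 to 68.0 CPM (median 34.2) and 2.11 to 12.6 CPM (median 4.83), overlapped and gave -2.39 ± 0.74 (adjusted p = 0.0123, edgeR quasi-likelihood with Benjamini-Hochberg adjustment). All 5 kept their call without any 1 of the 12 libraries.

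In the colon 2 receptors of 8 genes tested were called, both lower in the submucosal plexus, against 21.8% of genes. Gfra1 was at 25.8, 31.4, 69.9, 120 and 170 CPM in the submucosal plexus and at 255, 307, 404, 413 and 652 CPM in the myenteric plexus. No submucosal library reached the lowest myenteric one, and 12.6% of all genes likewise did not overlap here. The log2 fold change of -2.28 ± 0.46 (adjusted p = 0.00174, edgeR quasi-likelihood with Benjamini-Hochberg adjustment) held without any 1 library. Gfra2 was at 152, 212, 225, 226 and 319 CPM in the myenteric plexus, against 27.9, 34.9, 39.6, 110 and 214 CPM. Submucosal male 3 lay inside the myenteric range, and -1.41 ± 0.50 passed narrowly (adjusted p = 0.0455, edgeR quasi-likelihood with Benjamini-Hochberg adjustment). Leaving out any 1 of 7 of the 10 libraries ended the call: myenteric male 2, male 3 or female 2, or submucosal male 1, female 1, female 2 or female 3 (-1.52 to -1.18). The call was also lost with RLE size factors (-1.36), with no filter on low counts (-1.40) and with the 2 groups fitted alone (-1.37), with adjusted p = 0.0515, 0.0510 and 0.1004 in that order (edgeR quasi-likelihood with Benjamini-Hochberg adjustment).

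The other colon receptors were not called between plexuses. Ednrb, at 72.3 to 204 CPM in the myenteric and 37.0 to 100 CPM in the submucosal plexus, had -1.13 ± 0.49 (adjusted p = 0.101, edgeR quasi-likelihood with Benjamini-Hochberg adjustment). Ngfr was at 38.9 to 60.4 CPM and at 11.2, 11.5, 14.3, 71.1 and 78.0 CPM, the last 2 libraries (female 3 and male 3) being above every myenteric one. Those 2 libraries were also the highest of this group for Gfra1 and Gfra2. Ret was at 0.175 to 10.3 CPM in the myenteric and 3.04 to 6.29 CPM in the submucosal plexus.

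**Figure D3:**
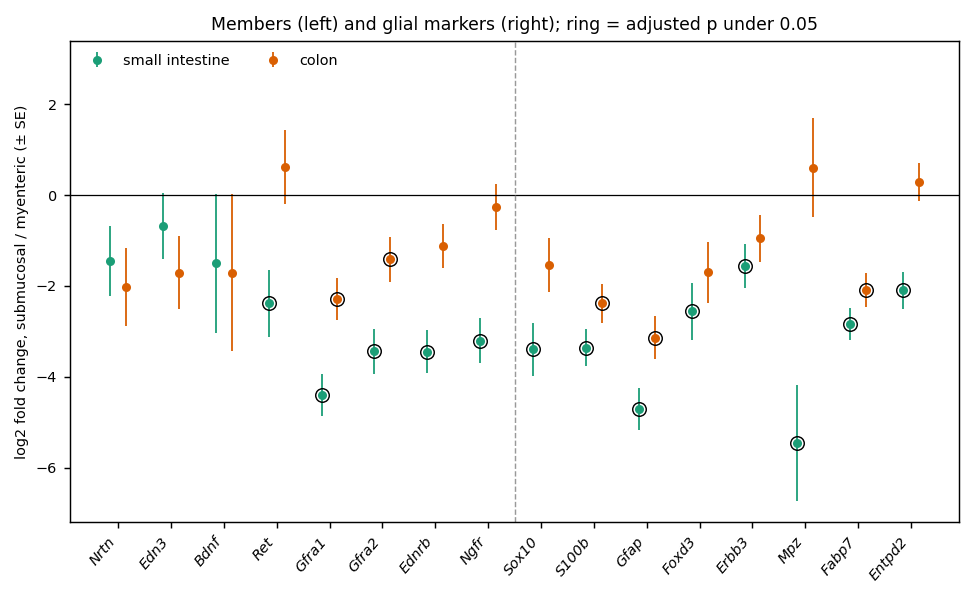
Log2 fold change of the submucosal over the myenteric plexus with its SE, for 8 of the 9 genes (left of the dashed line) and 8 glial marker genes (right), in small intestine (green) and colon (orange); a ring marks an adjusted p under 0.05. The receptors Gfra1, Gfra2, Ednrb and Ngfr lie between -4.40 and -3.21 in the small intestine, a range that holds the glial markers Sox10 and S100b.

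Glial markers fell with the receptors between the plexuses. All 9 were called lower in the submucosal small intestine with a median of -3.22, where Sox10 had -3.39 ± 0.58 and S100b -3.36 ± 0.40, values near those of the receptors. In the colon 4 of 9 glial markers were called lower with a median of -1.66. Markers of macrophages and other leukocytes summed to 2260 to 12545 CPM in the submucosal and 136 to 1829 CPM in the myenteric small intestine, and epithelial markers to 940 to 3995 against 4.90 to 149 CPM. The corresponding colon sums were 153 to 7193 against 119 to 447 CPM and 1164 to 4490 against 3.76 to 1341 CPM. Neuronal markers were lower too, 8 of 9 being called in the small intestine and 6 of 9 in the colon, as were all 6 smooth muscle markers in both. The share of counts in mitochondrial genes was 11.6% to 18.8% in the myenteric and 2.84% to 9.43% in the submucosal small intestine, without overlap, and 5.35% to 16.5% and 4.02% to 7.18% in the colon. Their part in the result was not tested.

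The interaction of plexus and region called 1 of 8 genes against 1.19% of all genes. Ngfr differed more between plexuses in the small intestine than in the colon, by 2.95 ± 0.69 on the log2 scale (adjusted p = 0.0400, edgeR quasi-likelihood with Benjamini-Hochberg adjustment). The terms of Ret, Gfra1, Gfra2 and Ednrb had the same sign, 3.01, 2.11, 2.03 and 2.32, and did not pass (adjusted p = 0.181, 0.0872, 0.138 and 0.0873, edgeR quasi-likelihood with Benjamini-Hochberg adjustment). The call of Ngfr was lost without any 1 of 9 of the 22 libraries (2.49 to 2.94): myenteric colon male 1, male 2, male 3 or female 3, submucosal colon male 3 or female 3, myenteric small-intestinal female 1, and submucosal small-intestinal female 1 or female 2. Ret passed without myenteric colon male 2 (4.43), Gfra1 without submucosal colon male 1 (2.32) and Ednrb without submucosal small-intestinal male 2 (2.59). DESeq2 called Gfra1, Gfra2 and Ednrb as well (2.13, 2.05 and 2.37, with adjusted p = 0.0152, 0.0477 and 0.0138).

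The ligands were scarce, and none was called by edgeR in untreated mice. Nrtn, the neurturin gene, was at 4.20, 4.78, 10.3, 12.7 and 21.0 CPM in the myenteric colon and at 0, 2.03, 3.33, 3.62 and 4.09 CPM in the submucosal colon. All submucosal libraries were below all myenteric ones, and 12.6% of all genes likewise did not overlap in this comparison. The log2 fold change of Nrtn, -2.02 ± 0.85, did not pass (adjusted p = 0.0944, edgeR quasi-likelihood with Benjamini-Hochberg adjustment). By DESeq2 it passed narrowly (-1.95, adjusted p = 0.0495). Edn3, the endothelin-3 gene, was at 6.35, 13.5, 27.1, 27.5 and 28.0 CPM in the myenteric colon and 2.16 to 13.0 CPM in the submucosal colon, with -1.71 ± 0.81 (adjusted p = 0.133, edgeR quasi-likelihood with Benjamini-Hochberg adjustment). Small-intestinal Nrtn was at 0.713 to 11.7 CPM in the myenteric and 0.360 to 5.29 CPM in the submucosal plexus, and Edn3 at 2.0 to 14.7 and 0 to 10.6 CPM.

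Gdnf itself was near the limit of counting. In the myenteric plexus of untreated mice it had no count in 5 of 6 small-intestinal and 3 of 5 colon libraries, where the other 2 were at 3.07 and 10.3 CPM. All 5 submucosal colon libraries had counts, from 0.740 to 4.09 CPM, and 3 of 6 small-intestinal ones, up to 0.791 CPM. At 2 h single libraries reached 5.82 to 8.00 CPM in groups whose other members were at or near 0. Untreated Bdnf was at 0 in 3 of 5 myenteric and 4 of 5 submucosal colon libraries, and at up to 7.62 CPM in the small intestine. Gdnf was not tested in untreated mice, where the filter on low counts removed it, and it was not called in any comparison at 2 h or 24 h.

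Beyond the 9 genes, a list of 40 genes of the same pathways was examined, of which 30 were tested in untreated mice. Between the plexuses of the small intestine 16 fell and 2 rose in the submucosal plexus, against the 43.5% of all genes called there, with a median log2 fold change of -1.29 over the list. The 4 with the largest differences were Mme, a peptidase that cleaves endothelins, at 5.05 ± 1.37, Dok5, an adaptor of RET, at -4.36 ± 0.98, Edn2, another endothelin, at 4.17 ± 1.42, and Gfra4, the persephin co-receptor, at -3.65 ± 1.39. In the colon 4 fell and 1 rose, a share below the 21.8% of all genes, with a median of -0.54. Ntrk2, the BDNF receptor, was at least 11.9-fold higher and Gfra4 at least 7.68-fold lower in the submucosal plexus, and the feedback inhibitors of kinase signalling Spry4 and Spry1 had -1.93 ± 0.45 and -1.66 ± 0.49. A fold called at least N is set against 3 counts, because all libraries of 1 group held 3 or fewer.

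Between regions of the myenteric plexus 2 of the 30 rose and 2 fell in the colon, against the 3.19% of all genes called, with a median of -0.31. Ntrk2 was at least 5.35-fold lower there, and the heparan sulfate proteoglycan Sdc3 had -1.12 ± 0.30. Spry4 was higher at 1.95 ± 0.42 and the adaptor Shc1 at 1.20 ± 0.24. In the submucosal plexus 4 rose and 1 fell, against 5.18% of all genes, with a median of 0.68. Mme was at least 11.1-fold lower in the colon, and Spry4 had 2.10 ± 0.44, Grb10, an adaptor of receptor kinases, 1.66 ± 0.47 and Ece1, which makes active endothelin, 1.36 ± 0.33. Spry4 was thus higher in the colon in both plexuses, with no overlap in either, at 69.1 ± 49.2 against 17.8 ± 6.67 CPM (myenteric, n = 5 and 6) and 18.1 ± 5.46 against 4.15 ± 2.65 CPM (submucosal). Of all genes, 3.14% did not overlap between myenteric regions and 5.66% between submucosal ones. The interaction of plexus and region called 1 gene in each direction, Ntrk2 and Mme, against 1.19% of all genes.

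LPS at 2 h changed none of the 9 genes by the test. In the small intestine 0 of 9 were called, against 1.1% of 13107 genes, and in the colon 0 of 9, against 0.778%. None of the 9 had an unadjusted p under 0.05 in either region, and DESeq2 called none of the 9 after adjustment. The smallest edgeR unadjusted p, for Ngfr in the colon, was 0.0914. Ngfr there was at 43.3, 48.9, 57.4 and 70.9 CPM after LPS and at 13.3, 32.9, 32.9 and 43.8 CPM after PBS, so that 1 LPS library lay inside the PBS range. Gfra1 in the small intestine was at 341, 390, 441 and 617 CPM after LPS and at 295, 402, 468 and 604 CPM after PBS. Ednrb was at 346 to 586 CPM and 314 to 563 CPM in the same groups. The test of LPS by region called 0 of 9 genes, against 0% of all genes, 452 of which had an unadjusted p under 0.05. None of the 29 pathway genes tested was called in either region by edgeR, where 144 and 102 genes of all were.

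At 24 h the co-receptor Gfra2 was the gene of the set that differed most with LPS. It was lower in level after LPS in all 4 combinations of genotype and region, yet no single combination passed by edgeR when all 24 h groups were fitted together. The share of genes called was 7.17% in wild-type small intestine, 7.96% in wild-type colon, 0.718% in knockout small intestine and 0.718% in knockout colon, and 0 of the 9 genes was called in each in that fit.

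In wild-type small intestine Gfra2 was at 21.3, 23.6, 49.3 and 63.3 CPM after LPS and at 78.2 to 279 CPM (median 130) after PBS, without overlap. Wild-type colon gave 0.211, 0.472, 25.2, 49.1 and 85.3 CPM after LPS against 114, 116, 122 and 154 CPM after PBS, again without overlap, and the 2 lowest values are 1 and 2 counts (mice 8 and 3). Of all 14903 genes, 13.4% did not overlap in wild-type small intestine and 13.5% in wild-type colon. Knockout small intestine gave 34.5, 35.0, 45.6, 63.0 and 144 CPM after LPS and 107, 124, 199 and 604 CPM after PBS, so the library of mouse 11 lay inside the PBS range. In knockout colon the LPS libraries were at 23.8, 24.1, 24.1 and 40.7 CPM and the PBS libraries at 33.9, 71.0, 119, 185 and 452 CPM, overlapping through mice 11 and 20.

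The log2 fold changes in these 4 comparisons were -1.94 ± 0.84, -1.98 ± 0.82, -2.00 ± 0.82 and -2.61 ± 0.89 (adjusted p = 0.167, 0.125, 0.302 and 0.197, edgeR quasi-likelihood with Benjamini-Hochberg adjustment). Wild-type colon passed without the LPS library of mouse 5 (-2.76, adjusted p = 0.0458), and DESeq2 called Gfra2 in knockout colon (-2.61). With the 2 groups fitted alone, edgeR called it in wild-type small intestine (-1.87, adjusted p = 0.0185). Averaged over genotype and region, 2 of 9 genes were called, both lower, against 24.4% of all genes. Gfra2 had -2.13 ± 0.42 (adjusted p = 0.000310, edgeR quasi-likelihood with Benjamini-Hochberg adjustment), and it kept its call without any 1 of the 37 libraries, with the mouse as a block (-2.45) and within mice numbered 11 and above (-1.53).

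Ednrb was called in that average at -0.69 ± 0.24 (adjusted p = 0.0327, edgeR quasi-likelihood with Benjamini-Hochberg adjustment). The call did not hold with the mouse as a block (-0.60, limma-voom adjusted p = 0.0697) or within mice numbered 11 and above (-0.23, edgeR adjusted p = 0.516). It was also lost without any 1 of 11 libraries (-0.66 to -0.52): PBS mice 14 and 24 (wild-type colon), 7, 12 and 15 (knockout colon) and 7 and 12 (knockout small intestine), and LPS mice 2 and 21 (knockout colon), 21 (knockout small intestine) and 13 (wild-type small intestine). Ednrb was lowest in wild-type colon after LPS, at 21.4, 30.4, 48.3, 114 and 125 CPM against 73.9, 110, 166 and 200 CPM after PBS, with -1.02 ± 0.48 (adjusted p = 0.180, edgeR quasi-likelihood with Benjamini-Hochberg adjustment). In wild-type small intestine Ednrb was at 113 to 184 CPM after LPS and 101 to 279 CPM after PBS, in knockout small intestine at 63.7 to 188 and 113 to 451 CPM, and in knockout colon at 61.7 to 207 and 72.3 to 230 CPM, with overlap in each. The 3 lowest in wild-type colon were those of mice 5, 8 and 3, all numbered 10 and below. Mitochondrial genes held 14.2%, 9.05% and 10.9% of counts in these 3 libraries and 4.88% and 7.30% in the other 2 of the group. Over the 24 h experiment that share was 4.24% to 26.0% in mice numbered 10 and below and 1.66% to 10.4% in those numbered 11 and above, and its part in the results was not tested.

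Gfra1 moved less than Gfra2. Its average was -0.61 ± 0.28 (adjusted p = 0.118, edgeR quasi-likelihood with Benjamini-Hochberg adjustment), -0.17 within mice numbered 11 and above, and it passed only without the knockout LPS small-intestinal library of mouse 11 (-0.72). In wild-type colon Gfra1 was at 99.0, 112, 161, 184 and 263 CPM after LPS and 128, 156, 197 and 260 CPM after PBS, which overlapped throughout. Ngfr overlapped in all 4 combinations, for example at 55.4, 111, 137 and 431 CPM after LPS against 72.0 to 242 CPM after PBS in wild-type small intestine.

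Ret after LPS was at 35.1, 37.2, 77.2 and 144 CPM in wild-type small intestine, where PBS gave 33.3 to 90.3 CPM. Of the ligands, Nrtn was at 10.5 to 21.3 CPM after LPS against 6.24 to 16.9 CPM after PBS in the same tissue, and Edn3 at 6.24 to 18.7 against 5.32 to 40.3 CPM. In wild-type colon Edn3 was at 0, 0, 4.00, 5.90 and 8.87 CPM after LPS and at 7.91, 12.4, 15.3 and 21.0 CPM after PBS. Gdnf did not exceed 4.28 CPM in any library at 24 h.

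**Figure D4:**
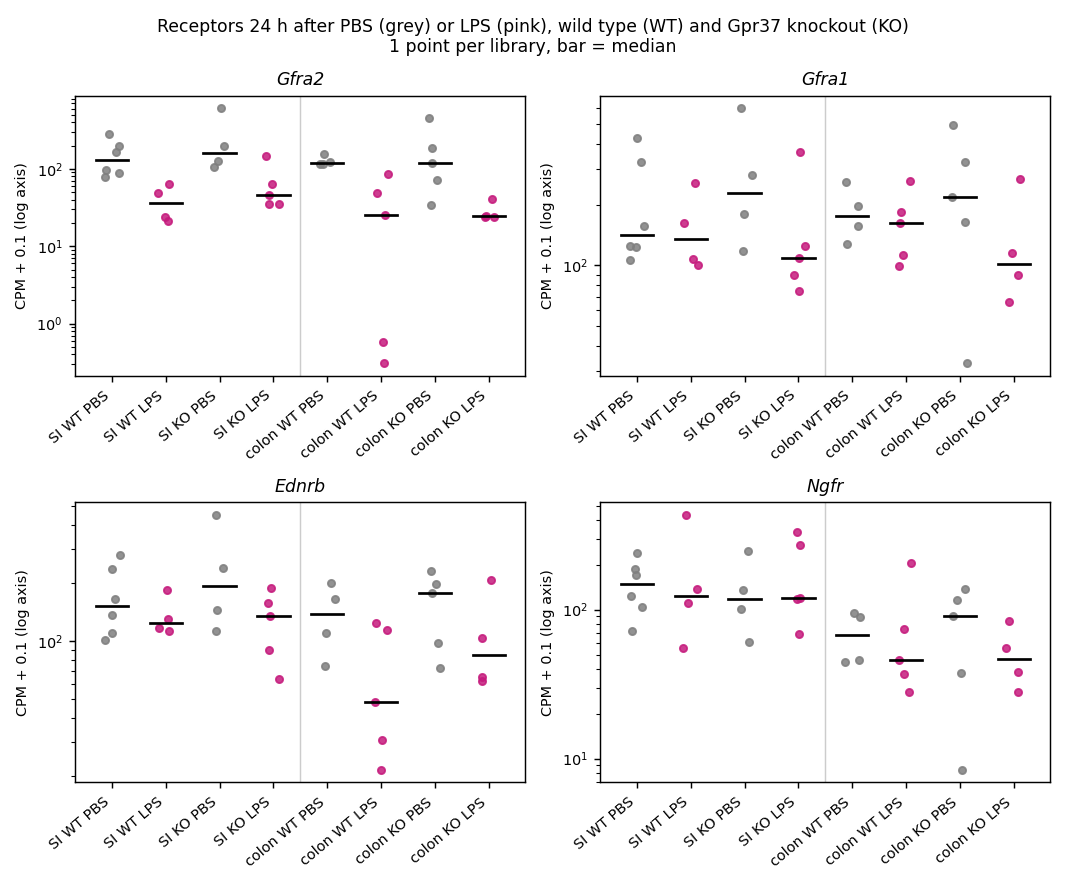
CPM plus 0.1 on a log axis for Gfra2, Gfra1, Ednrb and Ngfr at 24 h, 1 point per library and a bar at the median, after PBS (grey) or LPS (pink) in wild-type (WT) and Gpr37 knockout (KO) mice, small intestine (SI) left of the line and colon right. The Gfra2 median is lower after LPS in all 4 pairs of groups. Its wild-type groups do not overlap, as is true of 13.4% (SI) and 13.5% (colon) of all genes. Gfra1 and Ngfr overlap in all 4.

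Markers of glia and of other cells moved with Gfra2 in part. In the average over genotype and region 5 of 9 were called lower and 1 higher after LPS, with a median log2 fold change of -0.82, where all genes had -0.10. S100b had -1.59 ± 0.34 and Gfap had 1.13 ± 0.33. Neutrophil markers were all called higher, and their sum was 5.82 to 605 CPM in wild-type LPS small intestine, where PBS libraries had at most 1.09 CPM. Fibroblast markers, 2 of 4 called lower in the average, summed to 8009 to 13266 CPM with PBS and 321 to 6355 CPM with LPS in wild-type colon. In knockout colon the median sum went the other way, 6893 CPM with PBS and 12112 CPM with LPS, with overlapping ranges. Small-intestinal medians were lower after LPS, from 5442 to 2855 CPM in wild types and from 5973 to 2080 CPM in knockouts. Mesothelial markers, 1 of 3 called lower, summed to 502 to 2409 and 199 to 371 CPM in wild-type small intestine. The part of these markers in the result was not tested.

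Among the 36 pathway genes tested at 24 h, 6 fell and 2 rose in that average, with a list median of -0.44. That share lies below the 24.4% of all genes called. Edn2 had no count in any LPS library and averaged 0.252 to 1.46 CPM in the PBS groups. These levels are near the floor, since 3 counts corresponded to 0.180 to 1.09 CPM in the LPS libraries. Gfra3, the co-receptor for artemin, had -3.68 ± 0.78 (adjusted p = 0.000701, edgeR quasi-likelihood with Benjamini-Hochberg adjustment). In wild-type small intestine its mean was 35.6 ± 37.9 CPM with PBS (SD, n = 6) against 2.71 ± 1.83 with LPS (n = 4). Ntrk2 was higher at 1.98 ± 0.65, with wild-type small intestine at 15.0 ± 12.8 CPM under PBS against 39.8 ± 38.5 under LPS. The adjusted p of Ntrk2 was 0.0243 by the edgeR quasi-likelihood test with Benjamini-Hochberg adjustment. In wild-type colon alone 2 of the 36 fell and none rose, a share below the 7.96% of all genes called. Maged1, a p75 partner, was one of them, at -0.98 ± 0.28. The other 3 combinations called none.

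None of the 9 genes was called between Gpr37 genotypes. Knockout against wild type called 0 of 9 with PBS in either region, against 0% of genes in both, and 256 and 629 of the 14903 genes had an unadjusted p under 0.05. With LPS 0 of 9 were called in each region, against 0.0134% and 0.429% of genes. Averaged over treatment and region the count was 0 of 9 against 0.0671%. DESeq2 likewise called none of the 9 in these 5 comparisons, and no member had an unadjusted p under 0.05. The nearest was Edn3 in the LPS colon, at 2.13, 6.75, 7.24 and 56.5 CPM in knockouts and 0, 0, 4.00, 5.90 and 8.87 CPM in wild types (edgeR unadjusted p = 0.0521 in the test across all genes). The interaction of genotype and LPS called 0 of 9 in both regions, against 0% of genes, with 578 and 2009 genes at an unadjusted p under 0.05. Gfra2 after LPS was at 21.3 to 63.3 CPM in wild-type and 34.5 to 144 CPM in knockout small intestine, and at 0.211 to 85.3 and 23.8 to 40.7 CPM in the colon, with overlap in both. A test that misses the threshold does not show that the genotypes are alike.

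**Figure D5:**
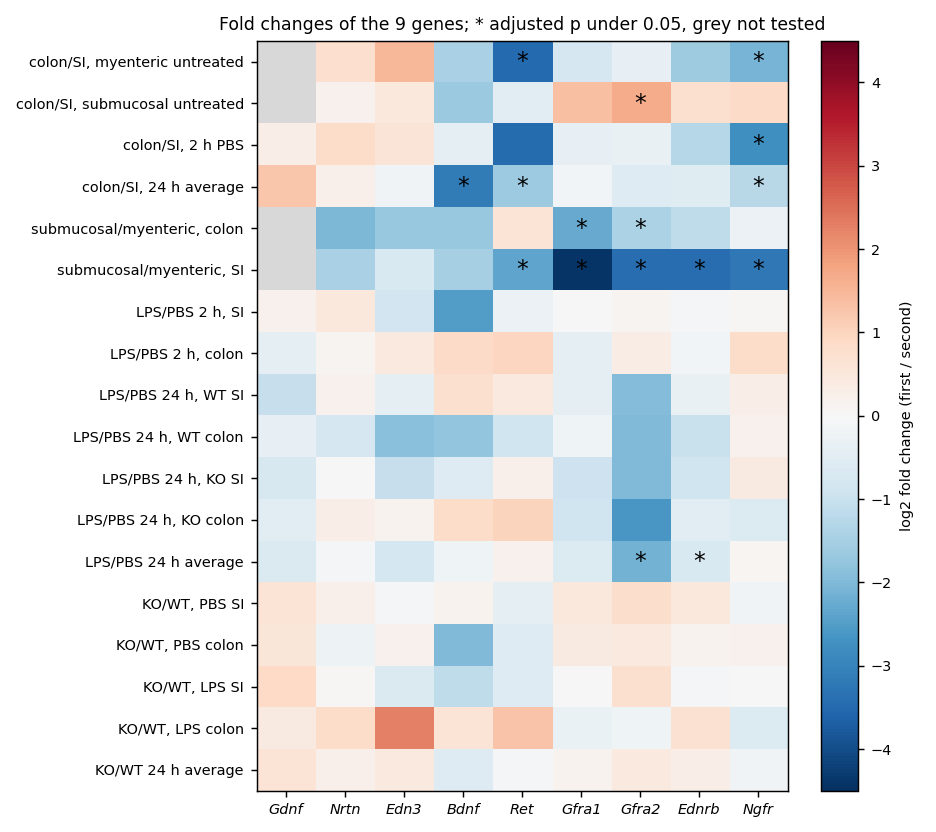
Log2 fold change of each of the 9 genes (columns) in 18 comparisons (rows), red for higher and blue for lower in the first-named group; an asterisk marks an adjusted p under 0.05 and grey a gene removed by the filter. Calls lie in the regional and plexus comparisons and in the 24 h averages, and the rows for LPS at 2 h and for knockout against wild type hold none.

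The genes whose levels varied most like those of each member were sought over all 75 libraries after the group means were removed, among 12815 genes that passed the filter in every experiment. For Gfra2 they were Sfrp5, Zbtb20 and Scn7a, with Pearson's r of 0.88, 0.87 and 0.87, and for Gfra1 they were Art3, Gpr37l1 and Prnp (0.87, 0.86 and 0.85). Scn7a and Gpr37l1 are known from glia. Ret varied most like Svop, Tmem59l and Celf4 (0.80, 0.78 and 0.77), of which Celf4 and Svop are known from neurons. Nrtn was most like Foxf1, Rgs5 and Rbpms (0.81, 0.78 and 0.71), known from mesenchymal and mural cells. Ngfr was most like Crtac1 (0.71), Edn3 like Pcdh19 (0.66), Ednrb like Sgcb (0.60) and Bdnf like Calm2 (0.56).

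Among the members themselves, Gfra1 varied with Gfra2 (r = 0.61) and with Ngfr (0.61) within groups, and Edn3 with Nrtn (0.50). The r of Ret was 0.02 with Gfra1 and -0.30 with Gfra2. These correlations are descriptions over libraries that share depth and cell makeup within a group, and libraries of 1 mouse enter them more than once.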

How the data were processed

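The authors deposited read counts per gene for 75 Smart-seq2 libraries in 2 tables, and the counts were used as deposited. Per the submitters' processing notes the tools were Trim Galore 0.4.4, STAR 2.5.3 and DESeq2, with the build GRCm38; the counter, annotation and use of strand are not given in the sources used here. Untreated, 2 h and 24 h libraries were fitted separately, all groups of an experiment together, with edgeR 4.0.16 (R 4.3.3): TMM factors, filterByExpr, quasi-likelihood F tests and Benjamini-Hochberg adjustment over all genes tested (14090, 13107 and 14903), with a call at an adjusted p under 0.05. SEs were computed as the log2 fold change divided by the square root of F. CPM used TMM-scaled library sizes, and 3 counts served as the floor, which covers counting error only. The scripts were tested on simulated counts. Alternatives were RLE factors, DESeq2 1.42.0, no filter, sex as a covariate, the compared groups alone, a replicate block and each library left out.

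The members and the pathway and marker lists were chosen with earlier results of these data known. All 9 members are named in every experiment, with per-library values where a member was called or its groups did not overlap (as lowest, median and highest, or as a range, in groups of over 5 libraries and for some groups of the 24 h averages), and up to 4 called pathway genes with the largest log2 fold change are named per comparison. Further genes of those lists, and the averages over the 24 h experiment, were chosen after values were seen. At 24 h the labels give mouse numbers, and 15 pairs of libraries from 1 mouse had a mean correlation of deviations from group means of 0.12 (10 pairs over 0.1). The mouse was therefore also fitted as a block with limma 3.58.1 (voom, consensus correlation 0.139). Figures were drawn with matplotlib 3.10.9. Some list genes are not reported here by name.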

Additional observations from a re-analysis of the deposited data

Results flagged for a closer look

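In groups of 4 to 6 libraries, 15 libraries stood apart from the rest of their group (Dixon's test at 95%) among 140 combinations of gene and group, where chance flags about 1 in 20 groups of normally spread values. That rate does not hold for the 7 flags of Gdnf and Bdnf in which all other libraries are at 0, since any count then stands apart. In untreated mice, Nrtn was at 0 CPM in submucosal colon male 3 against 2.03 to 4.09 CPM in the others. Ngfr was high in myenteric colon female 2 (60.4 CPM, others 38.9 to 43.5), and Bdnf was at 1.45 CPM in submucosal colon female 1, the others being at 0.

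At 2 h Gdnf was at 8.00 CPM in PBS colon female 3, at 5.82 CPM in LPS colon male 4 and at 7.37 CPM in LPS small-intestinal female 1, each in a group otherwise at 0. Gfra1 was low in LPS colon female 1 (105 CPM, others 290 to 350). Edn3 was low in PBS colon male 4 (1.15 CPM, others 16.3 to 26.8), and Ngfr was high in LPS small-intestinal male 2 (401 CPM, others 147 to 169).

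At 24 h Gdnf was at 0.925 CPM in wild-type LPS small intestine of mouse 13, and Bdnf at 1.08 CPM in wild-type LPS colon of mouse 16 and at 1.30 CPM in knockout PBS colon of mouse 12, with the other libraries at 0. The knockout PBS small-intestinal library of mouse 7 was low for Ret (2.12 CPM, others 54.2 to 56.0) and for Bdnf (0.529 CPM, others 3.86 to 5.16). It was also the highest of its group for Gfra1, Gfra2, Ednrb and Ngfr. Gfra2 was high in knockout LPS colon of mouse 11 (40.7 CPM, others 23.8 to 24.1).

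The plexus difference of Ngfr differed between small intestine and colon by the interaction term (2.95 on the log2 scale).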

How the results depend on the processing

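Member fold changes were recomputed only where the reported edgeR fit gave an unadjusted p under 0.05, a choice that itself makes a change of sign unlikely. None of these reversed, and the shares in the next sentence cover them alone. Other member fold changes, and those of pathway and marker genes, were not recomputed. Across other settings 197 of 217 member fold changes kept their direction and side of the threshold, and across fits without 1 library 549 of 604 did; the cause of the changes was not tested. DESeq2 called 2 members rather than 1 between regions of the submucosal plexus, 4 rather than 1 in the plexus by region interaction, 2 rather than 1 between regions after PBS at 2 h, and 1 rather than 0 for LPS in knockout colon. It also added Ednrb between myenteric regions and Nrtn between colon plexuses. With the compared groups alone the counts were 0 between submucosal regions, 1 between colon plexuses (2 as reported), 0 between regions after PBS at 2 h and 1 for LPS in wild-type small intestine (0 as reported), and between myenteric regions Ednrb was gained and Ret lost. RLE factors and no filter each gave 1 between colon plexuses. For the LPS average at 24 h, mice numbered 11 and above and the replicate block of mouse each gave 1 rather than 2. Without 1 library the counts ran from 0 to 2 between myenteric regions, between submucosal regions and in the interaction, from 0 to 3 between regions after PBS at 2 h, from 1 to 2 between colon plexuses, from 0 to 1 for LPS in wild-type colon and from 1 to 3 for the LPS average.

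The replicate block on the sex and number of untreated libraries left 1 of the 2 members called between myenteric regions and 246 of the 449 genes. Same-numbered libraries had a mean correlation of 0.09 in untreated mice (10 of 30 pairs over 0.1, other pairs -0.02) and 0.06 at 2 h (5 of 24). Since not every pair was over 0.1 they were not treated as pairs, which does not show that they are unpaired: the 4 wild-type PBS pairs that shared a mouse at 24 h had a mean of 0.09.

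Counts over all genes moved by more than 1.5 times in several comparisons. DESeq2 called 987 genes (449 by edgeR) between myenteric regions, 1149 (730) between submucosal regions, 577 (168) in the interaction, 498 (29) between regions after PBS at 2 h and 183 (21) at 24 h. For LPS it called 260 (144) and 279 (102) at 2 h in small intestine and colon, 44 (0) in their interaction, and 1871 (1069), 2255 (1186), 527 (107) and 474 (107) at 24 h in wild-type small intestine, wild-type colon, knockout small intestine and knockout colon. For genotype it called 58 (0), 74 (0), 182 (2) and 719 (64) with PBS and LPS, 59 (0) and 344 (0) in the interactions with LPS and 244 (10) in the average. With the compared groups alone the counts were 1902 (3069) between colon plexuses, 63 (102) for LPS at 2 h in colon, 46 (29) and 352 (21) between regions after PBS at 2 h and 24 h, and 1704, 412, 47 and 7 for LPS in those 4 combinations at 24 h. For genotype they were 1 (0) with PBS in small intestine, 0 (2) and 0 (64) with LPS, and 3 (0) in the small-intestinal interaction. The replicate block gave 104 (29) and 358 (21) between regions after PBS and, by mouse, 1727 (1151) in the regional average. No filter gave 46 (29) between regions at 2 h and 14 (64) for genotype with LPS in colon, and RLE factors 1 (2) in small intestine. Mice numbered 11 and above gave 253 (21) between regions, 23 (2) and 334 (64) for genotype with LPS, 25 (0) in the colon interaction and 523 (10) in the genotype average. The division of mouse numbers as a covariate gave 40 (64) and 1 (0) in the colon, and sex 1 (0) in the small-intestinal interaction. Low counts limit Gdnf and Bdnf, many of whose libraries are at 0.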
